A study of Mus musculus with 10 samples.

Results

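Macrophages sorted from mammary tumours grown from Ptdss1 knockdown cells were compared with macrophages sorted from tumours grown from wild-type cells. The comparison was defined by the sample labels and took 6 of the 10 libraries of the series, 3 per group. The control group held macrophages of wild-type C57BL/6 mice that carried WT PyMT tumour cells. The Ptdss1 knockdown group held macrophages of wild-type C57BL/6 mice that carried Ptdss1 knockdown PyMT tumour cells. PyMT stands for the polyoma middle T oncogene, which drives the mammary tumours these cells were derived from. In both groups 2 mammary glands received the cells, and macrophages were sorted after 5 weeks of tumour growth. The macrophages themselves carried no alteration in either group, and the 4 libraries of the series from macrophage-specific Mertk knockout mice served only to estimate the spread and for 1 side comparison. The labels do not give how the knockdown was made, how far it went, whether the cells were 1 clone, or whether each library came from its own mouse. The p-values therefore measure the spread between these libraries, which may in part be technical.

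Phosphatidylserine is a membrane lipid kept on the inner leaflet of living cells. Ptdss1 and Ptdss2 encode the enzymes that make it, flippases of the Atp8 and Atp11 families hold it inside, and scramblases such as Xkr8 expose it on dying cells. Macrophages recognise the exposed lipid directly through receptors such as Stab1, Havcr2 and members of the Timd and Cd300 families, or through the bridging proteins Gas6 and Pros1 and the receptor kinases Mertk, Axl and Tyro3. Uptake of dying cells by this route is known to accompany changes in lipid handling and cytokine output. The comparison addresses how a tumour cell with less of the synthase goes with the state of the macrophages in the tumour.

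Values are levels on the scale log2(normalised reads + 1), given in the order of replicates 1, 2 and 3 of each group. A difference is the knockdown mean minus the control mean on that log2 scale, with its standard error (SE) from limma, a linear model fitted across all genes and all 10 libraries. The 6 libraries held from 14622749 to 25815071 reads on protein-coding genes. Knockdown replicate 1 stood apart: it had 6995 genes with at least 10 reads, against 9066 to 11523 in the other 5, and control replicate 2 was the next lowest with 9066. The median gene of knockdown replicate 1 lay 1.58 log2 units from the mean of the other knockdown libraries, against 0.53 to 0.93 for each of the other 5 libraries measured the same way. Values without knockdown replicate 1 are therefore given beside many of the results below. To limit the number of genes that were simply missed in 1 library, groups were compared gene by gene in 6332 genes. These had at least 10 reads in all 6 libraries and are called well expressed here. Genes that fell below 10 reads in knockdown replicate 1 are left out by this filter. The median log2 difference was 0.18 in the genes kept and -0.05 in all genes tested.

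**Figure D1:**
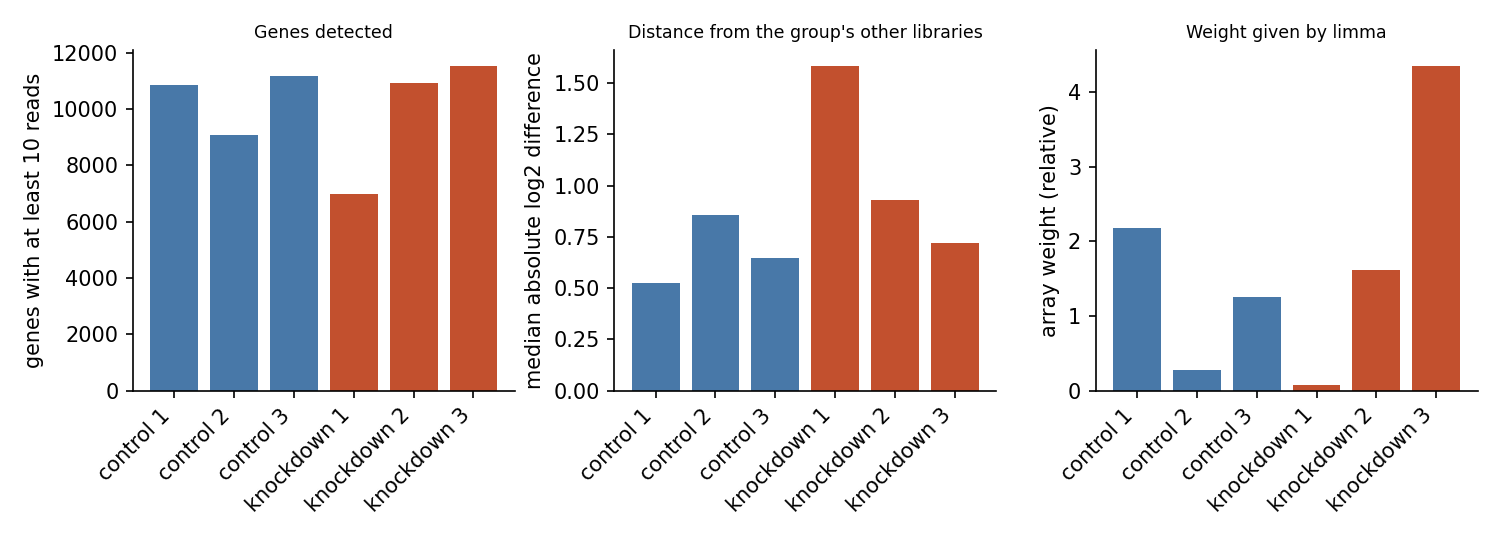
Each bar is a library, and the panels show how many genes reached 10 reads (left), the median absolute log2 difference of well-expressed genes from the mean of the group's other libraries (middle), and the relative weight limma gives the library (right). Knockdown replicate 1 had the fewest genes, 6995, the largest distance, 1.58, and the lowest weight, 0.073.

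The sorted cells carried the markers of macrophages in both groups. Each of the 16 macrophage identity genes checked was read in all 6 libraries. Lyz2, the lysozyme of myeloid cells, had log2 levels of 17.92, 17.43 and 17.13 in the control and 17.74, 17.77 and 17.35 in the knockdown libraries. Summed over the epithelial and tumour cell markers, the log2 level was 8.35 to 9.27 in the control and 2.63, 9.62 and 9.93 in the knockdown libraries. T cell markers together had log2 levels of 8.61 to 11.07 in the control and 5.61 to 10.43 in the knockdown libraries. Knockdown replicate 1 was the lowest library for both lists. Neutrophil markers together had log2 levels of 9.56 to 10.56 in the control and 9.24 to 12.46 in the knockdown libraries, the highest being knockdown replicate 1, where Csf3r was 12.44 while S100a8 was at 0. Dendritic cell markers together had log2 levels of 9.68 to 10.92 in the control and 10.64 to 12.07 in the knockdown libraries. The part of these cells in the results below was not tested. Ptdss1 was read from the macrophages, not from the tumour cells that carried the knockdown, so its level does not check the labels.

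No gene passed the threshold of an adjusted p below 0.05 in limma: 0 of 11564 genes tested, or 0%, with a smallest adjusted p of 0.841. Unadjusted, 335 genes had p below 0.05 in limma, which is 2.90% of those tested. That is below the share of 0.05 that no difference in any gene would give on average. Limma-voom on the recovered reads also called 0 genes. The median SE of a difference was 0.72 log2 units among well-expressed genes and 1.37 among all genes tested, so the differences given below are values and not calls. Among well-expressed genes, 276 were higher in every knockdown library than in every control library, 4.36% of the 6332, and 179 were lower in every knockdown library, 2.83%. These shares are the background for the counts within gene lists below. Of the 6332 genes, 3757 had positive differences, or 3078 without knockdown replicate 1, which is the background for counts of positive members. The median difference was 1.35 in the higher set and -1.26 in the lower set. Knockdown replicate 1 was the highest knockdown library for 241 of the 276 and the lowest for 133 of the 179. Over all well-expressed genes it was the highest knockdown library for 58.7% and the lowest for 33.2%. Without it, 398 genes were higher and 461 lower in both remaining knockdown libraries than in all 3 control libraries. The median differences of the 276 and the 179 genes were 0.84 and -0.71 without it. An exact permutation test of 3 against 3 libraries cannot go below a two-sided p of 0.1, so non-overlap is used here as a description. With interchangeable libraries, a share of 0.1 of genes would on average show non-overlap in either direction. The higher and lower shares together lie below 0.1, so the sets are no larger than libraries without a group difference would give.

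**Figure D2:**
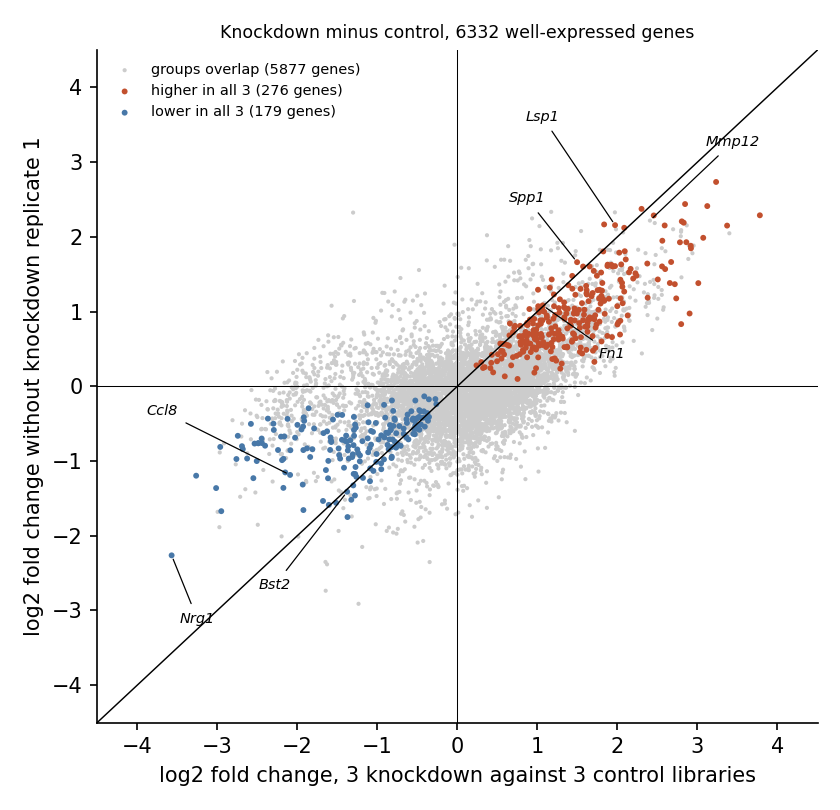
Each point is a well-expressed gene; the horizontal axis is its log2 difference between 3 knockdown and 3 control libraries, the vertical axis the same without knockdown replicate 1, and the diagonal marks equal values. Colour marks the 276 genes higher and the 179 genes lower in all 3 knockdown libraries; Fn1, Spp1, Lsp1, Mmp12 and Bst2 lie near the diagonal, while Nrg1 and Ccl8 lie nearer to 0 on the vertical axis than on the horizontal axis.

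Secreted matrix and matricellular proteins were among the leading genes of the higher set, with little dependence on knockdown replicate 1. Fn1, which encodes fibronectin, had log2 levels of 12.66, 12.45 and 12.89 in the control and 13.70, 13.64 and 13.87 in the knockdown libraries. All 3 knockdown libraries lay above all 3 controls, and knockdown replicate 1 lay between the other knockdown libraries. Its log2 difference was 1.07 ± 0.37 (SE), and 0.96 to 1.18 when any 1 library was left out. Spp1, which encodes osteopontin, had log2 levels of 12.31, 12.93 and 12.58 in the control and 13.77, 13.88 and 14.66 in the knockdown libraries. The groups did not overlap, and the log2 difference of 1.50 ± 0.54 became 1.66 without knockdown replicate 1. Mmp12, the macrophage metalloelastase, had log2 levels of 9.28, 12.73 and 10.85 in the control and 13.73, 12.62 and 13.72 in the knockdown libraries. Here the groups overlapped, because control replicate 2 lay above knockdown replicate 2. The log2 difference of Mmp12 was 2.41 ± 0.67, and 2.22 without knockdown replicate 1. When limma weighted the libraries by their agreement, Mmp12 and Spp1 were the only genes past the threshold, each with an adjusted p of 0.0368 and log2 differences of 3.35 and 1.99. That fit gave knockdown replicate 1 a weight of 0.073 and knockdown replicate 3 a weight of 4.35. It gave control replicate 2, the control with the highest Mmp12 level, a weight of 0.28. With any 1 library left out, the unweighted log2 difference of Mmp12 ranged from 1.57 to 3.29, the highest being without control replicate 2.

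Around these genes the wider matrix lists were mixed. Of 7 well-expressed matricellular and matrix genes 4 had positive differences, and Thbs1, which encodes thrombospondin, went the other way with log2 levels of 11.60, 12.48 and 14.11 in the control and 11.72, 11.27 and 10.93 in the knockdown libraries. Its groups overlapped, through knockdown replicate 1 and control replicate 1, and its log2 difference was -1.42 ± 0.64, or -1.63 without knockdown replicate 1. Of 13 well-expressed matrix-degrading enzymes and inhibitors 8 had positive differences, with a median of 0.46, or 0.02 without knockdown replicate 1. Timp1, an inhibitor of metalloproteinases, was the only 1 of the 13 without overlap, against 4.36% higher and 2.83% lower of all well-expressed genes. It had log2 levels of 6.75, 7.01 and 6.05 in the control and 9.35, 7.36 and 8.42 in the knockdown libraries. Its log2 difference was 1.78 ± 0.96, or 1.29 without knockdown replicate 1. Adam9, a membrane metalloproteinase, had a log2 difference of -1.71 ± 0.77 that was -0.39 without knockdown replicate 1.

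The other leading genes of the higher set were of varied function. Lsp1, an actin-binding protein of leukocytes, had log2 levels of 9.63, 8.31 and 8.62 in the control and 10.45, 11.82 and 10.19 in the knockdown libraries, a log2 difference of 1.97 ± 0.64. Tppp3, which binds tubulin, had log2 levels of 9.57, 9.15 and 8.27 in the control and 10.17, 11.50 and 10.83 in the knockdown libraries, a log2 difference of 1.83 ± 0.63. In both genes knockdown replicate 2 was the highest library, and without knockdown replicate 1 the log2 differences were 2.16 and 2.17. Ncoa5, a nuclear receptor coactivator, had log2 levels of 7.45, 5.02 and 7.31 in the control and 11.14, 10.11 and 7.89 in the knockdown libraries. Adgre5, which encodes the adhesion receptor CD97, had log2 levels of 7.89, 5.65 and 7.64 in the control and 10.53, 10.43 and 7.99 in the knockdown libraries. For both, knockdown replicate 3 lay just above the highest control, by 0.44 and 0.10 log2 units. The store-operated calcium channel subunit Orai3 had log2 levels of 8.08, 4.52 and 7.58 in the control and 10.39, 9.14 and 9.20 in the knockdown libraries. In Ncoa5, Adgre5 and Orai3 knockdown replicate 1 was the highest library. Their log2 differences were 3.12, 2.59 and 2.85 with it and 2.41, 2.15 and 2.44 without it.

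Knockdown replicate 1 was also the highest library for 6 further genes of the higher set. They were Txndc5, a protein disulphide isomerase of the endoplasmic reticulum, Fbxl5, a sensor of cellular iron, Rab32, a small GTPase of lysosome-related organelles, B4galnt1, a ganglioside synthase, and Fam20c, a secretory pathway kinase. Xiap, an inhibitor of caspases, was the last. Of 18 well-expressed survival genes Xiap was the only 1 without overlap, against 4.36% higher and 2.83% lower of all well-expressed genes. Knockdown replicate 1 stood out most in Fam20c, with log2 levels of 12.14, 8.48 and 8.16 in the knockdown libraries against 6.66, 6.91 and 7.24 in the control libraries. The log2 difference of Fam20c was 2.66 ± 0.99 with that library and 1.38 without it. The log2 differences of Txndc5, Fbxl5, Rab32 and B4galnt1 were 2.24, 1.46, 1.52 and 2.04 with it. Without it they were 1.48, 0.97, 1.02 and 1.43. The difference of Xiap was 1.20 with it and 0.90 without it.

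**Figure D3:**
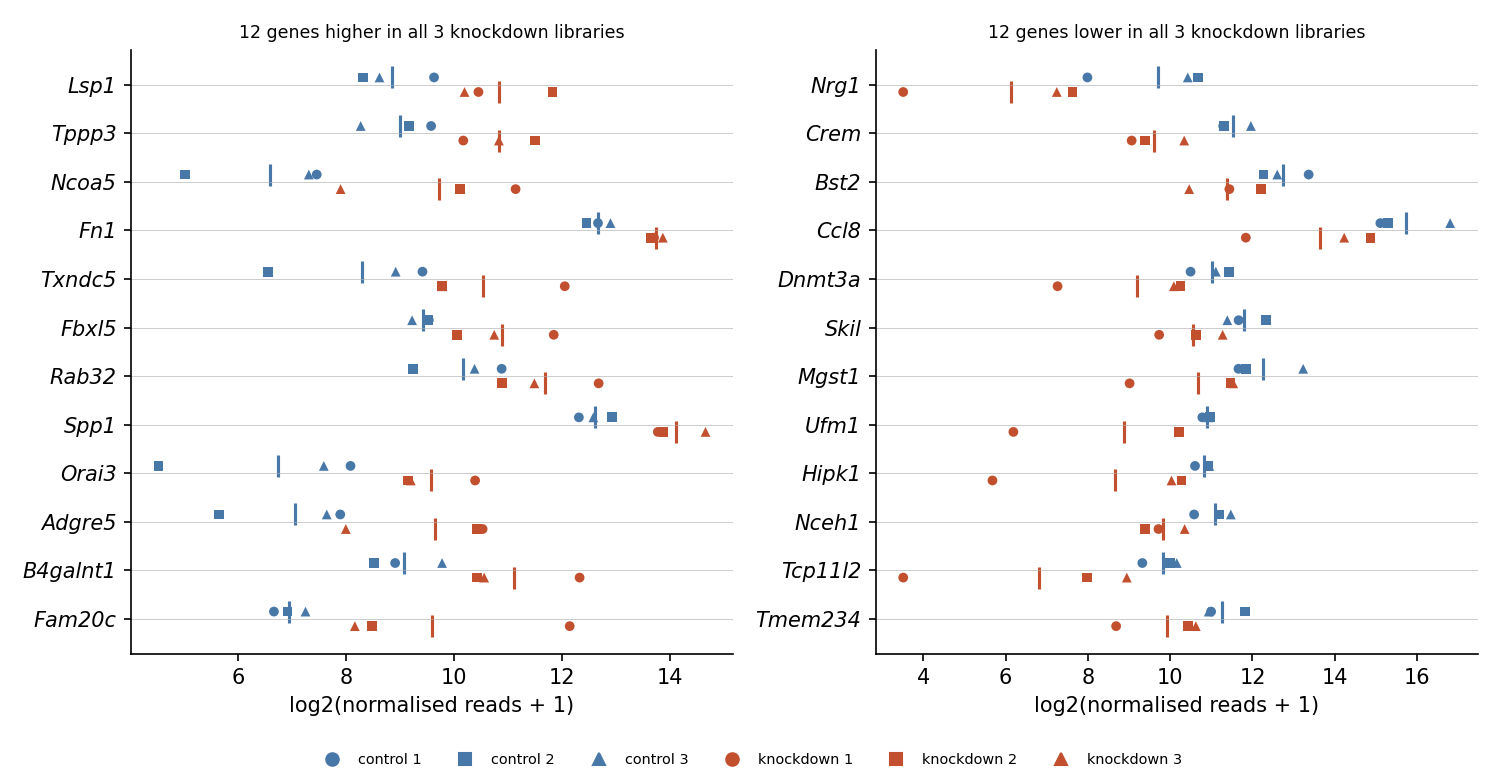
Points give the log2 level of each library for the 12 well-expressed genes of smallest p higher (left) and lower (right) in all 3 knockdown libraries, with control in blue and knockdown in red; vertical ticks are group means. Fn1 shows knockdown libraries close together, and Spp1 shows knockdown replicate 3 above the other knockdown libraries. Ufm1, Hipk1 and Dnmt3a show knockdown replicate 1 far below the other knockdown libraries.

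The lower set was led by Nrg1, which encodes neuregulin, a ligand of the ErbB receptors. Its log2 levels were 7.99, 10.67 and 10.43 in the control and 3.51, 7.63 and 7.24 in the knockdown libraries. Knockdown replicate 1 was the lowest library, and knockdown replicate 2 lay 0.36 log2 units below control replicate 1. The log2 difference was -3.57 ± 1.07, and -2.26 without knockdown replicate 1. Among 10 well-expressed growth and angiogenic factors 6 had negative differences. Nrg1 was the only 1 of the 10 without overlap, against 4.36% higher and 2.83% lower of all well-expressed genes. Igf1, the insulin-like growth factor, had log2 levels of 10.24, 11.62 and 11.90 in the control and 4.50, 10.58 and 10.59 in the knockdown libraries, and its log2 difference of -2.70 ± 1.25 was -0.67 without knockdown replicate 1.

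Bst2, which encodes tetherin, an interferon-induced protein that holds enveloped viruses at the cell surface, had log2 levels of 13.37, 12.27 and 12.60 in the control and 11.44, 12.21 and 10.46 in the knockdown libraries. Knockdown replicate 3, not replicate 1, was the lowest library, and the log2 difference was -1.38 ± 0.48 with replicate 1 and -1.41 without it. Knockdown replicate 2 lay only 0.06 log2 units below the lowest control. Under the fit that weighted libraries, Bst2 had an adjusted p of 0.0664, the only gene beside Mmp12 and Spp1 below 0.1. Nceh1, a cholesteryl ester hydrolase of macrophages, had log2 levels of 10.58, 11.18 and 11.47 in the control and 9.72, 9.38 and 10.35 in the knockdown libraries, a log2 difference of -1.26 ± 0.51, or -1.21 without knockdown replicate 1. Skil, a repressor of TGF-beta signalling, had a log2 difference of -1.25 ± 0.48, or -0.84 without it. Mgst1, a membrane glutathione transferase, had a log2 difference of -1.57 ± 0.61, or -0.75 without it.

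In the remaining 5 of the 12 leading genes of the lower set, as in Skil and Mgst1, knockdown replicate 1 was the lowest library. Dnmt3a, a DNA methyltransferase, had log2 levels of 10.50, 11.43 and 11.11 in the control and 7.26, 10.25 and 10.09 in the knockdown libraries. The ubiquitin-like modifier Ufm1 had log2 levels of 10.78, 10.97 and 10.94 in the control and 6.19, 10.21 and 10.21 in the knockdown libraries. The kinase Hipk1 had log2 levels of 10.60, 10.92 and 10.95 in the control and 5.68, 10.28 and 10.03 in the knockdown libraries. In each of these 3 genes knockdown replicates 2 and 3 lay below the lowest control by less than 1 log2 unit. The log2 differences of Dnmt3a, Ufm1 and Hipk1 were -1.81, -2.03 and -2.16, and without knockdown replicate 1 they were -0.84, -0.69 and -0.67. For Tcp11l2 and Tmem234 the differences were -3.01 and -1.34 with it, and -1.36 and -0.72 without it.

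The well-expressed receptors and bridging proteins that read phosphatidylserine overlapped between the groups, as did most well-expressed genes. None of 12 well-expressed phosphatidylserine receptors and none of 7 well-expressed bridging proteins and opsonins had groups that did not overlap. The shares over all well-expressed genes were 4.36% higher and 2.83% lower, so 0 in lists this short is near them. None of these genes passed the test. The median difference of the 12 receptors was 0.14 with 9 positive, or -0.38 with 4 positive without knockdown replicate 1. Mertk had log2 levels of 9.64, 9.26 and 10.97 in the control libraries. Its level was 7.47 in knockdown replicate 1, 10.20 in replicate 2 and between these in replicate 3. Its log2 difference of -1.07 ± 0.75 was -0.36 without knockdown replicate 1. Axl had log2 levels of 12.33, 12.38 and 12.51 in the control and 14.20, 12.05 and 11.72 in the knockdown libraries. Knockdown replicate 1 lay above all controls and the other knockdown libraries below them, so the difference of 0.25 ± 0.57 turned to -0.52 without that library. For Tyro3 every library was at 0. Gas6, the ligand of all 3 kinases, had log2 levels of 8.75, 9.25 and 8.36 in the control and 10.78, 10.28 and 9.08 in the knockdown libraries, a log2 difference of 1.26 ± 0.79, or 0.89 without knockdown replicate 1. Pros1, the second ligand, ranged from 4.59 to 9.65 on the log2 scale in the control and from 1.45 to 9.24 in the knockdown libraries.

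Of the receptors that bind the lipid directly, Havcr2, which encodes TIM-3, had log2 levels of 9.85, 11.37 and 11.31 in the control and 9.46, 9.93 and 10.01 in the knockdown libraries. Its knockdown libraries overlapped control replicate 1 only, and the log2 difference was -1.04 ± 0.56, or -0.87 without knockdown replicate 1. Trem2, a lipid sensor, had log2 levels of 12.58, 12.57 and 12.71 in the control and 9.58, 12.16 and 12.80 in the knockdown libraries, with a log2 difference of -1.11 ± 0.62 that was -0.14 without knockdown replicate 1. The scavenger receptors Lrp1 and Stab1 had log2 differences of 1.04 and 0.92 that were 0.21 and 0.24 without it.

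Genes for phosphatidylserine synthesis and membrane asymmetry in the macrophages were read with low precision. Ptdss1 had log2 levels of 9.73, 10.36 and 9.44 in the control and 1.85, 9.43 and 9.58 in the knockdown libraries. Knockdown replicate 1 alone was low, and the difference of -2.89 ± 1.52 was -0.33 without it. Ptdss2, the second synthase, had log2 levels of 6.88, 0 and 5.58 in the control and 10.64, 7.26 and 6.96 in the knockdown libraries. It was higher in all 3 knockdown libraries, but knockdown replicate 3 lay only 0.07 log2 units above control replicate 1, and control replicate 2 had no read. Its log2 difference was 4.13 ± 1.80, or 2.95 without knockdown replicate 1. The flippase gene Atp8a1 was the only 1 of 7 well-expressed genes in this list without overlap, against 4.36% higher and 2.83% lower of all well-expressed genes. Its log2 levels were 10.71, 11.84 and 10.63 in the control and 7.30, 10.41 and 10.46 in the knockdown libraries, a log2 difference of -1.67 ± 0.70 that was -0.63 without knockdown replicate 1.

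The well-expressed genes typical of monocytes, the blood cells from which tumour macrophages are replenished, all had positive differences, and none passed the test. Of all 10 monocyte markers tested, 7 had positive differences, with a median of 1.09. Knockdown replicate 1 had at least 10 reads for 4 of the 10, so the filter keeps only markers read in that library. Summed over the 10 monocyte markers, the log2 level was 13.68, 12.82 and 13.17 in the control and 15.46, 14.64 and 14.28 in the knockdown libraries, and the groups did not overlap. This rests on Fn1, which is one of the 10 markers as well as a matrix gene. Without Fn1, a choice made after seeing the data, the summed log2 level was 12.70, 10.67 and 10.64 in the control and 14.96, 13.64 and 12.29 in the knockdown libraries, so that knockdown replicate 3 lay below control replicate 1. In sorted cells in bulk, a larger share of cells of a type and more RNA of that type per cell cannot be told apart. The 4 well-expressed members, Ccr2, F13a1, Plac8 and Fn1, had a median difference of 2.63, or 2.05 without knockdown replicate 1, against 0.18 and -0.01 for all well-expressed genes. With library weights their median was 1.03. Ccr2, the receptor for the chemokine CCL2, had log2 levels of 11.63, 10.41 and 8.70 in the control and 14.61, 13.01 and 11.51 in the knockdown libraries. Only knockdown replicate 3 lay below the highest control, and the log2 difference was 2.79 ± 1.10, or 2.01 without knockdown replicate 1. F13a1, a coagulation factor subunit made by monocytes and some macrophages, had log2 levels of 8.98, 6.13 and 9.39 in the control and 12.38, 11.15 and 9.37 in the knockdown libraries, a log2 difference of 2.80 ± 1.19, or 2.09 without knockdown replicate 1.

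Plac8, a further monocyte marker, had log2 levels of 10.71, 3.97 and 8.02 in the control and 10.60, 10.74 and 8.76 in the knockdown libraries, a log2 difference of 2.47 ± 2.03, or 2.18 without knockdown replicate 1. Ly6c2, the surface marker of classical monocytes, had log2 levels of 9.90, 1.63 and 7.08 in the control and 2.42, 6.99 and 7.63 in the knockdown libraries, and was not well expressed. In both genes the groups overlapped, and the log2 difference of Ly6c2 was -0.52 ± 2.06, or 1.11 without knockdown replicate 1. The macrophage identity list was near 0 with a median difference of -0.13 over 16 genes, or -0.10 without knockdown replicate 1. Itgam, which encodes the integrin CD11b shared by monocytes and macrophages, was the only member higher in every knockdown library, against 4.36% of all well-expressed genes. Its log2 levels were 11.10, 11.10 and 11.16 in the control and 11.88, 11.72 and 11.47 in the knockdown libraries. The log2 difference was 0.57 ± 0.45, or 0.47 without knockdown replicate 1. Ly6c2, Plac8 and Itgam were named after their values were seen.

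**Figure D4:**
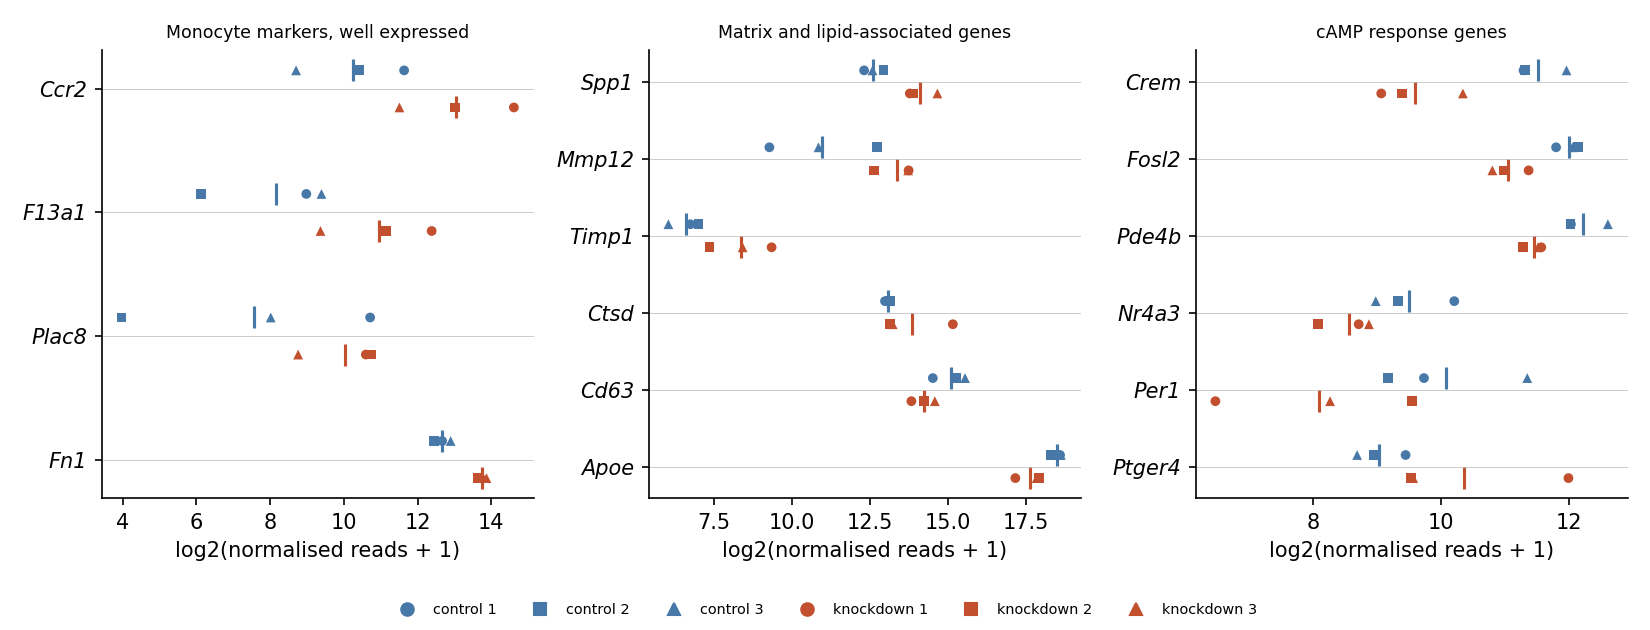
Points give the log2 level of each library for the 4 well-expressed monocyte markers (left), 6 matrix and lipid-associated genes (middle) and 6 genes of the cAMP response (right), with control in blue, knockdown in red and group means as vertical ticks. Fn1, Spp1, Apoe, Crem, Fosl2, Pde4b and Nr4a3 show groups that do not overlap, while Ccr2, F13a1, Plac8, Mmp12, Cd63 and Per1 overlap.

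Genes of lipid-loaded macrophages split in direction. Of 15 well-expressed members 9 had positive and 6 negative differences. Apoe, the apolipoprotein that carries cholesterol out of macrophages, had log2 levels of 18.58, 18.29 and 18.61 in the control and 17.15, 17.90 and 17.83 in the knockdown libraries. It was lower in all 3 knockdown libraries, with a log2 difference of -0.86 ± 0.37, or -0.63 without knockdown replicate 1. The tetraspanin gene Cd63 had log2 levels of 14.51, 15.25 and 15.54 in the control and 13.82, 14.24 and 14.57 in the knockdown libraries, a log2 difference of -0.89 ± 0.38, or -0.69 without knockdown replicate 1, with a slight overlap. Ctsd, a lysosomal protease, was higher in all 3 knockdown libraries by a gap of 0.0015 log2 units, and its log2 difference of 0.75 was 0.10 without knockdown replicate 1. Among 13 well-expressed genes of cholesterol efflux 8 had negative differences, with a median of -0.10, or -0.41 with 2 positive without knockdown replicate 1. In 1 every knockdown library lay above every control and in 2 below, against 4.36% and 2.83% of all well-expressed genes. The higher gene was Pltp, a phospholipid transfer protein, with log2 levels of 11.39, 10.72 and 8.78 in the control and 12.82, 12.44 and 11.40 in the knockdown libraries. Its log2 difference was 1.92 ± 0.96, or 1.62 without knockdown replicate 1. The groups of Pltp were 0.013 log2 units apart. Abcg1, a cholesterol exporter named after its values were seen, had log2 levels of 10.57, 10.35 and 10.35 in the control and 9.63, 10.15 and 9.83 in the knockdown libraries, a log2 difference of -0.55 ± 0.50.

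Chemokine genes had differences in both directions. Ccl8, a ligand of several CC chemokine receptors, had log2 levels of 15.11, 15.29 and 16.80 in the control and 11.84, 14.87 and 14.23 in the knockdown libraries. It was the only 1 of 17 well-expressed chemokines without overlap, against 4.36% higher and 2.83% lower of all well-expressed genes. The log2 difference of Ccl8 was -2.09 ± 0.72, or -1.19 without knockdown replicate 1. Of the 17 genes 12 had positive differences, with a median of 0.49, or 0.56 without that library. Ccl2, the ligand of CCR2, had log2 levels of 12.62, 11.79 and 10.29 in the control and 12.53, 12.70 and 13.46 in the knockdown libraries, a log2 difference of 1.32 ± 0.55 with an overlap at knockdown replicate 1. Ccl6 had log2 levels of 13.23, 13.12 and 13.15 in the control and 13.05, 15.32 and 13.87 in the knockdown libraries, a log2 difference of 0.91 ± 0.56. Cxcl9, a T cell attractant induced by interferon gamma, had a log2 difference of -0.64 ± 0.46.

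Transcripts known to be induced by cyclic AMP, the second messenger of prostaglandin E2 and adenosine receptors, had differences in both directions. Of 21 well-expressed members 13 had negative and 8 positive differences, with a median of -0.44, or -0.38 without knockdown replicate 1. In 4 of the 21 every knockdown library lay below every control, and in 1 every knockdown library lay above, against 2.83% and 4.36% of all well-expressed genes. The summed log2 level of the list was 16.20, 16.31 and 16.38 in the control and 16.40, 15.58 and 16.35 in the knockdown libraries, and the groups overlapped. Crem, a transcription factor of this response, had log2 levels of 11.29, 11.31 and 11.96 in the control and 9.06, 9.39 and 10.34 in the knockdown libraries. All 3 knockdown libraries were lower, with a log2 difference of -1.92 ± 0.61 that was -1.66 without knockdown replicate 1. The phosphodiesterase gene Pde4b, which breaks down cyclic AMP, had log2 levels of 12.03, 12.02 and 12.61 in the control and 11.57, 11.29 and 11.52 in the knockdown libraries. Fosl2, an AP-1 subunit, had log2 levels of 11.80, 12.15 and 12.06 in the control and 11.37, 10.98 and 10.80 in the knockdown libraries. Nr4a3, an orphan nuclear receptor, had log2 levels of 10.21, 9.33 and 8.98 in the control and 8.71, 8.08 and 8.87 in the knockdown libraries. In these 3 genes knockdown replicate 1 was not the lowest library, and their log2 differences were -0.77, -0.95 and -0.95 with it and -0.82, -1.11 and -1.03 without it. Pde4b, Fosl2 and Nr4a3 were named after their values were seen. The clock gene Per1 had a log2 difference of -1.99 ± 0.91, or -1.18 without knockdown replicate 1, and Ptger4, which encodes the prostaglandin E2 receptor EP4, was higher in all 3 knockdown libraries with a log2 difference of 1.34 ± 0.84, or 0.52 without it.

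Interferon-stimulated genes had more positive than negative differences, as did all well-expressed genes together, and their size depended on knockdown replicate 1. Of 30 well-expressed members 23 had positive differences and 7, Bst2 among them, negative ones. Over all 6332 well-expressed genes 3757 were positive, or 3078 without knockdown replicate 1. The median was 0.82, or 0.35 with 20 positive without knockdown replicate 1, and 0.11 with library weights. In 2 members, Irf9 and Isg15, every knockdown library lay above every control, against 4.36% of all well-expressed genes. Irf9, a subunit of the factor that carries the interferon signal to DNA, had log2 levels of 10.05, 8.84 and 9.55 in the control and 13.21, 10.16 and 10.14 in the knockdown libraries, a log2 difference of 1.69 ± 0.70 that was 0.67 without knockdown replicate 1. Isg15, a ubiquitin-like modifier named after its values were seen, had log2 levels of 8.77, 8.82 and 7.97 in the control and 10.87, 9.37 and 8.92 in the knockdown libraries, a log2 difference of 1.20 ± 0.81, or 0.63 without knockdown replicate 1. In both genes knockdown replicate 1 was far above the rest. Sp100, a nuclear body protein, had a log2 difference of 1.50 ± 0.59, or 0.89 without it. Ifit and MHC genes have near-identical copies, between which reads may be split.

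The promoters of Bst2 and Isg15, whose levels differed in opposite directions, are shown because both hold letters that match the core of the interferon-stimulated response element. The sequences are the 250 bases before the start of each gene, from RefSeq on build GRCm38.p6, with matches in capitals to TTTC, any 2 bases and TTTC again, on either strand. Overlapping matches run together.
Bst2, minus strand, chr8:71537473-71537722: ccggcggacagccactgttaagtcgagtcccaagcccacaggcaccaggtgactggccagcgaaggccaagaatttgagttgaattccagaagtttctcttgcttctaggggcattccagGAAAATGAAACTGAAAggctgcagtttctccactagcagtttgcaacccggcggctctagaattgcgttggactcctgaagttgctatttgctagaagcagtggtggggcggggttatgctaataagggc
Isg15, minus strand, chr4:156200819-156201068: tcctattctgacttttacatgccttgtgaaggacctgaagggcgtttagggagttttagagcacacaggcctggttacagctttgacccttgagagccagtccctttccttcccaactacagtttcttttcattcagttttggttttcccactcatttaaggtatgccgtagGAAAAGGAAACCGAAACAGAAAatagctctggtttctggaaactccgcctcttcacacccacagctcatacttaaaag
Bst2 held 2 overlapping matches and Isg15 held 3. Irf9, which had 2 windows in the table, held 0 in both. Of the 30 well-expressed interferon genes 22 had a promoter in the table and 9 of these held a match, against 3.94% of the 5098 well-expressed genes with a promoter and 2.98% of all 32851 promoter windows. A match is a description of the letters and not a site shown to be bound.

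Antigen presentation genes mostly overlapped between the groups, as did most well-expressed genes. Of 10 well-expressed MHC class II genes 7 had negative differences, with a median of -0.17, and 0 had groups that did not overlap. Cd74, the invariant chain, had log2 levels of 19.81, 19.69 and 19.39 in the control and 19.19, 19.08 and 19.86 in the knockdown libraries. H2-Ab1 had a log2 difference of -0.14 ± 0.31, which is within its SE. Of 20 MHC class I genes 10 had positive and 10 negative differences, with a median of 0.03, and without knockdown replicate 1 the median was -0.23 with 4 positive. Erap1, which trims peptides for MHC class I, was the 1 member without overlap, against 4.36% higher and 2.83% lower of all well-expressed genes. Its log2 difference was 0.69 ± 0.48, or 0.39 without that library. It was named after its values were seen. Of 21 genes of the interferon gamma response 12 had positive differences, with a median of 0.04, or -0.26 without knockdown replicate 1.

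Inflammatory and phagocytic receptor genes also mostly overlapped between the groups, as did most well-expressed genes. Of 18 well-expressed Fc and complement genes 3 were higher in all 3 knockdown libraries, among them Itgam and C5ar1, against 4.36% of all well-expressed genes. C5ar1, the receptor for the complement fragment C5a, had log2 levels of 11.76, 11.59 and 10.84 in the control and 12.03, 11.94 and 12.91 in the knockdown libraries, a log2 difference of 0.90 ± 0.52, or 1.03 without knockdown replicate 1. Of 13 inflammatory cytokine genes, Il18bp, a decoy for interleukin 18, was lower in all 3 knockdown libraries, with log2 levels of 12.52, 12.65 and 12.44 in the control and 12.12, 11.69 and 12.25 in the knockdown libraries. The groups of Il18bp were 0.20 log2 units apart. Il1rn, the interleukin 1 receptor antagonist, had a log2 difference of 1.04 ± 0.53 that was 0.40 without knockdown replicate 1. Of 20 well-expressed toll-like receptor and NF-kB genes 16 had positive differences, with a median of 0.42, or -0.02 without that library. Tlr1, a receptor for bacterial lipopeptides, had a log2 difference of 1.66 ± 0.64, or 1.25 without it.

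Markers of alternative activation were also mixed. Mrc1, the mannose receptor, was lower in all 3 knockdown libraries, with log2 levels of 13.03, 12.91 and 13.72 in the control and 12.11, 12.87 and 12.81 in the knockdown libraries, but knockdown replicate 2 lay only 0.03 log2 units below the lowest control. Arg1, the arginase of alternatively activated macrophages, had log2 levels of 13.60, 14.91 and 15.74 in the controls. Its level was 15.80 in knockdown replicate 3, 13.98 in replicate 2 and below every control in replicate 1. The spread of Arg1 within each group was larger than its log2 difference of -0.49 ± 0.62.

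Housekeeping and metabolic lists followed knockdown replicate 1. Of 83 well-expressed cytosolic ribosomal protein genes 78 had negative differences with a median of -0.59, but without that library 49 were positive and the median was 0.02. Of 73 oxidative phosphorylation genes 60 were negative with a median of -0.43, and without it the median was -0.01. The lysosome list had a median of 0.15 with it and -0.23 without it, and the sterol and fatty acid synthesis list 0.46 and 0.03. The stress response list of the endoplasmic reticulum had a median of 0.62 with it and 0.14 without it. For glycolysis, of 23 well-expressed genes 19 had positive differences, with a median of 0.38, or 0.17 without it. Tpi1, the triosephosphate isomerase, had log2 levels of 12.84, 12.78 and 13.42 in the control and 13.95, 13.29 and 14.54 in the knockdown libraries, a log2 difference of 0.91 ± 0.41, or 0.90 without knockdown replicate 1. Gpi1, the glucose phosphate isomerase, had a log2 difference of 1.00 ± 0.49, or 0.63 without it. Hmox1, a haem-degrading enzyme, had log2 levels of 10.64, 8.60 and 11.46 in the control and 11.40, 11.21 and 11.89 in the knockdown libraries. Its groups overlapped slightly, and its log2 difference was 1.27 ± 0.61. Upper-quartile factors shifted the median difference of all well-expressed genes from 0.18 to -0.04. Small positive medians above are of the size of that shift. The size factor of knockdown replicate 1 was 1.00 as deposited and 1.79 by upper quartile. As deposited, its mean log2 level over well-expressed genes was 9.97, against 9.55 to 9.58 in the other libraries compared. Whether it is the highest library for a gene depends in part on that factor.

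**Figure D5:**
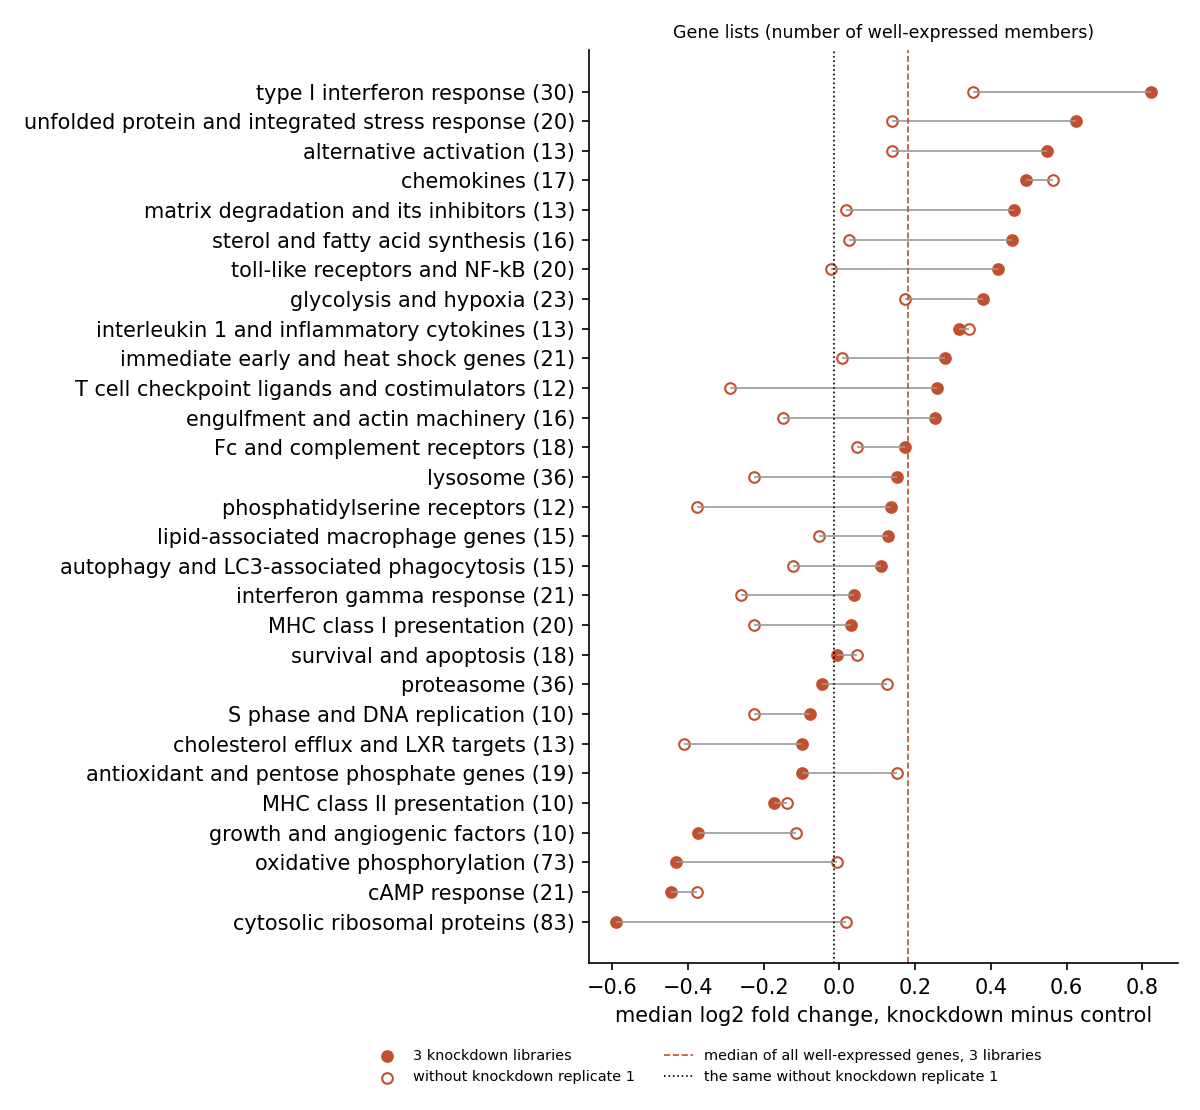
Filled points give the median log2 difference of the well-expressed members of each list of 10 or more members (number in brackets) over all 3 knockdown libraries, open points the same without knockdown replicate 1, and vertical lines the medians of all well-expressed genes. The ribosomal list goes from -0.59 to 0.02 without that library, while the cAMP list goes from -0.44 to -0.38 and the chemokine list from 0.49 to 0.56.

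Fn1, Spp1, Ccl8, Bst2 and Nrg1 were set beside the macrophages of Mertk knockout hosts, whose difference from control uses the same 3 control libraries. Fn1 had log2 levels of 14.49, 14.69, 15.29 and 15.13 in the Mertk knockout libraries, and Spp1 had 15.41, 15.58, 17.54 and 14.81. Both stood above all control and all Ptdss1 knockdown libraries. Ccl8 had log2 levels of 16.89, 17.73, 15.96 and 17.79 there, Bst2 had 13.21, 12.90, 12.91 and 12.86, and Nrg1 had 11.13, 9.12, 9.87 and 10.76. All 4 Mertk knockout libraries lay above all 3 Ptdss1 knockdown libraries in these 3 genes. The 3 genes were chosen because all 3 Ptdss1 knockdown libraries were low, and the same libraries are used here. That order, and the differences of Ccl8, Bst2 and Nrg1 below, are therefore favoured by the choice. In the direct test of Ptdss1 knockdown minus Mertk knockout, limma called 0 of 11564 genes, 0%, with a smallest adjusted p of 0.805 and 431 genes at an unadjusted p below 0.05. The log2 differences were -3.44 ± 0.67 for Ccl8, -1.60 ± 0.45 for Bst2, -4.10 ± 1.00 for Nrg1, -1.73 ± 0.51 for Spp1 and -1.17 ± 0.35 for Fn1.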

How the data were processed

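Sorted macrophages were sequenced from amplified cDNA (16 PCR cycles, 1 single-read run of 75 cycles), per the labels' protocols, with a kit that does not mark strand, so reads of antisense and overlapping genes are not separated. STAR, RSEM and mm10 are named in the submitters' processing notes, with no version. The authors deposited 1 table of log2 values per library, with no stated unit. The deposited log2 values are log2 of (reads over a size factor of the library, plus 1): undoing the log gave whole reads, within 0.01 of a read, for 100% of values. All 21938 genes matched GENCODE M21 and are protein-coding. 14 symbols turned into dates were restored by ID.

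Limma 3.58.1 under R 4.3.3 (trend, robust) was fitted to the log2 values of all 10 libraries, with group means and no covariates, for 11564 genes with at least 10 reads in at least 3 libraries. P-values were two-sided with Benjamini-Hochberg adjustment over all genes tested, and an adjusted p below 0.05 counted as a call. Fold changes on this scale understate differences of low genes, but a gene missed in 1 library can get a large one. With a pseudocount of 8 the log2 difference of Ptdss1 went from -2.89 to -2.37 and that of Ptdss2 from 4.13 to 3.09. Levels are not divided by gene length, so they are not compared between genes. Replicates are numbered in accession order. No molecular identifiers were used, so reads are not independent molecules. The fit was tested on simulated data. The simulation gave all libraries the same spread for a gene, so it held no library that stood apart as knockdown replicate 1 did. It therefore cannot show how the fit behaves with such a library.

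The comparison, its gene lists and its tests were chosen with earlier results of these data known. Named genes are 7 of the phosphatidylserine pathway and lysozyme; the 12 per direction of smallest p among well-expressed genes whose groups do not overlap, without automatic names; up to 2 per direction of smallest p in each list; up to 3 of highest mean in each marker list; and genes at 0 in a group. Others are marked where named. The direct comparison with Mertk knockout was added after the data were seen. Lists got counts and medians, with no set test, and some of their members are not reported here by name. Alternatives were other size factors, no filter, well-expressed genes only, limma-voom, no robust step, 6 libraries only, library weights, a pseudocount of 8, a threshold of 0.1, 50 reads, and left-out libraries.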

Additional observations from a re-analysis of the deposited data

How the results depend on the processing

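Over 16 alternative fits the number of genes past the threshold stayed at 0, except with library weights, which gave 2. It was also 0 at a threshold of 0.1. Outside library weights, the smallest adjusted p over the alternatives was 0.454, from leaving out knockdown replicate 2. Leaving out any 1 library gave 0 calls. It gave 398 to 756 well-expressed genes higher without overlap and 366 to 474 lower; except for knockdown replicate 1 these counts were added after seeing the data. Fewer libraries make non-overlap easier. Without knockdown replicate 1 there were more lower than higher genes, 461 against 398, and higher genes made up 46.3% of both sets, against 60.7% with it. With other size factors there were 280 and 287 higher and 174 and 177 lower genes, and with 50 reads in all 6 libraries 236 and 137.

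Of 76 genes given with values and followed through the alternatives, 72 kept their direction in every one run. Many of them were chosen because their groups did not overlap. Leaving out a library cannot turn the direction of such a gene, so for these genes it is no test. Ly6c2 was not among the 76, and its difference changed sign without knockdown replicate 1. Axl turned to -0.56 with library weights and -0.54 without both libraries of few genes, Pros1 to 0.22 and 0.19, and Arg1 to 0.85 and 0.22. Lyz2 turned to -0.15 with library weights and -0.10 with upper-quartile factors. With 1 library left out, the log2 differences ranged from -0.52 to 0.72 for Axl, from -2.38 to 1.65 for Pros1, from -1.26 to 0.14 for Arg1 and from -0.057 to 0.34 for Lyz2. The cause of these turns was not tested. Of 33 list medians, 11 moved by more than the spread between libraries without knockdown replicate 1. That spread includes knockdown replicate 1 itself, which widens it, so the count may be too low. No paired analysis was possible because the labels give the groups no shared replicate numbers. With a median SE of 0.72 log2 units among well-expressed genes, differences of that size were not detectable with this number of libraries. Much larger ones were not called either. The log2 differences of -3.57 for Nrg1 and 3.12 for Ncoa5 each had an adjusted p of 0.841 in limma.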

Other observations

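Some genes were read in a single group. In 37 genes at least 10 reads were found in 2 or more knockdown libraries and 0 in all 3 controls, and in 20 genes the reverse. Trim46, a neuronal tripartite motif protein, was listed at 0 in the controls and had log2 levels of 10.75, 4.87 and 3.91 in the knockdown libraries. Rsc1a1 was also at 0 in the controls and had log2 levels of 10.35, 4.67 and 7.52. In both genes knockdown replicate 1 was the highest library. Nnt, a mitochondrial transhydrogenase, stands on 2 gene IDs that overlap on chromosome 13, from 119335448 to 119408997 on GRCm38. One ID was at 0 in the controls with log2 levels of 9.81, 0 and 6.65 in the knockdown libraries, while the other had 8.62, 8.52 and 8.82 in the control and 7.31, 8.33 and 7.81 in the knockdown libraries, so neither ID alone gives the level of this gene. In the other direction, Hpgd, which degrades prostaglandin E2, was at 0 in all 3 knockdown libraries and had log2 levels of 9.11, 0 and 4.81 in the control libraries.

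Single markers of other blood cells were high in single knockdown libraries. Kit, the stem cell factor receptor of mast cells and progenitors, had log2 levels of 1.39, 0 and 3.75 in the control and 11.48, 6.85 and 2.22 in the knockdown libraries, while the mast cell protease gene Cpa3 was at 0 in all but knockdown replicate 3, where it was 2.40. Cd79a, a B cell receptor subunit, was at 0 in all but knockdown replicate 2, where its log2 level was 6.82. Cell cycle genes were thinly read in knockdown replicate 1, where 4 of 38 mitosis genes reached 10 reads, against 22 to 38 in the other 5 libraries. The centromere histone gene Cenpa had log2 levels of 9.74, 10.37 and 12.15 in the control and 3.62, 9.74 and 9.99 in the knockdown libraries, a log2 difference of -2.97 ± 1.42 that was -0.89 without knockdown replicate 1. Among 36 well-expressed proteasome genes, Psmd2 had a log2 difference of 1.31 ± 0.55, or 0.66 without it, and among 21 immediate early and heat shock genes, the chaperone gene Hsph1 had 1.46 ± 0.67, or 0.99 without it.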
